A study of Mus musculus with 22 samples.

Results

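Bone morphogenetic protein (BMP) signalling and its ID targets were followed through 9 genes in mouse lung epithelium: Bmp4, Bambi, Id1, Id2, Id3, Id4, Smad6, Smad7 and Smad9. The genes were chosen by name, for their place in the pathway, but with earlier results of these data known. Their counts beside the share of all genes are therefore a description. All 9 were measured at both ages, among 16674 genes measured at 1 age or both. None of the 9 was at a library's lowest value in any of the 22 libraries.

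BMP ligands bind paired serine/threonine kinase receptors, which phosphorylate the receptor SMADs. These enter the nucleus with SMAD4 and switch on target genes, of which the ID genes are the classical ones. ID proteins carry a helix-loop-helix domain without a DNA-binding region, so they hold basic helix-loop-helix factors away from DNA. SMAD6, SMAD7 and BAMBI are themselves induced by the pathway and damp it. In the embryonic mouse lung Bmp4 and Id2 are known for expression at the growing tips of the epithelial tree, and BMP signalling is known to act in alveolar repair in adults.

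The study, judged by its title, concerns the long noncoding RNA NANCI and its neighbour Nkx2-1, the gene of a transcription factor that specifies lung epithelium. Double animals were NANCI-CreERT2:RFP/+ and Nkx2.1-GFP/+, that is, heterozygous for both alleles. Nkx animals carried Nkx2.1-GFP/+ alone. NANCI animals were homozygous for NANCI-CreERT2:RFP, and WT animals were NANCI +/+. At E18.5 (embryonic day, late in gestation) there were 3 Double, 3 Nkx, 3 NANCI and 3 WT libraries, from cells enriched on magnetic beads for the epithelial surface protein EpCAM. At 6 months there were 4 Double, 3 Nkx and 3 WT libraries, from cells sorted as EpCAM+, CD45- and CD31-, a gate against leukocytes and endothelial cells. Age and enrichment changed together, so the ages were not tested against each other.

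Values are log2 expression, normalized so that all libraries of an age share nearly the same distribution, with 13750 genes at E18.5 and 15958 at 6 months. They are not scaled by gene length, so levels of different genes are not compared. Epcam, the defining epithelial marker, averaged 13.68 in E18.5 Double libraries against 13.10 in WT, and 13.74 in 6-month Double libraries against 12.98 in WT. Libraries also differed by sex: Xist and Y-linked genes gave 2 female and 1 male pattern in each of E18.5 Double, Nkx and WT, and 3 male patterns in NANCI. The third E18.5 Nkx library, male by its Y-linked genes, also held Xist at 11.34, against 7.21 to 8.48 in the other male-pattern libraries of that age. At 6 months all 4 Double libraries had the female pattern, against 2 of 3 Nkx and 1 of 3 WT libraries. The second 6-month WT library, male by its Y-linked genes (mean 10.14), also held Xist at 9.64. The other male-pattern libraries of that age held Xist at 7.57 and 8.16. In 6 of the 9 genes E18.5 WT replicate 3 was the lowest of the 3 WT libraries, and the results that rest on it are given with and without it. In bulk RNA, fewer cells of a type and less RNA per cell cannot be told apart.

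All 9 genes encode proteins. On GRCm38, Bmp4 (ENSMUSG00000021835) lies at chr14:46383520-46390669 on the minus strand and Bambi (ENSMUSG00000024232) at chr18:3507923-3516404 on the plus strand. Id1 (ENSMUSG00000042745) lies at chr2:152736251-152737410, plus strand, Id2 (ENSMUSG00000020644) at chr12:25093799-25097140, minus strand, Id3 (ENSMUSG00000007872) at chr4:136143497-136145755, plus strand, and Id4 (ENSMUSG00000021379) at chr13:48261228-48266026, plus strand. Smad6 (ENSMUSG00000036867) lies at chr9:63953076-64022059, minus strand, Smad7 (ENSMUSG00000025880) at chr18:75367529-75395935, plus strand, and Smad9 (ENSMUSG00000027796) at chr3:54755582-54801257, plus strand.

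At E18.5 the ID gene Id2 and the pathway inhibitor Bambi fell in both Double and Nkx epithelium relative to WT, and Id3 and Smad7 fell in Nkx. That made 2 of the 9 genes in Double, where 14.6% of all genes passed, and 4 of the 9 in Nkx, where 7.32% passed. The ligand Bmp4 did not pass in any comparison at either age with all libraries. It had log2 levels of 10.15, 10.61 and 10.49 in Double, 10.19, 10.84 and 10.58 in Nkx, 10.59, 10.72 and 10.92 in NANCI, and 11.11, 11.19 and 10.24 in WT libraries. The 4 groups overlapped, with the third WT library among the lowest of all. The difference from WT was -0.43 ± 0.24 in Double (log2 fold change ± SE from limma; Benjamini-Hochberg adjusted p over all genes = 0.287; 95% interval -0.96 to 0.10) and -0.31 ± 0.24 in Nkx (adjusted p = 0.512). Without WT replicate 3 the Double difference was -0.73 with adjusted p = 0.0217.

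Bambi encodes a pseudoreceptor, a membrane protein that resembles a type I receptor but lacks the kinase. Its log2 levels were 9.52, 9.13 and 9.61 in Double and 9.51, 9.54 and 9.56 in Nkx libraries. They were 10.11, 10.40 and 10.60 in NANCI and 10.80, 10.40 and 10.12 in WT libraries. The highest Double or Nkx library lay below the lowest WT library, while the NANCI and WT libraries overlapped. Bambi fell by 1.02 ± 0.19 in Double (limma adjusted p = 0.00427), which is 2.03-fold lower than WT. It fell by 0.91 ± 0.19 in Nkx (adjusted p = 0.0143). The Nkx call was lost without WT replicate 1 (-0.73, adjusted p = 0.0721).

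Id2, the ID gene of the distal lung tip, had the smallest p of the 9 genes in both Double and Nkx against WT. Per library, log2 levels were 13.23, 12.74 and 13.19 in Double, 12.92, 13.00 and 13.13 in Nkx, 13.42, 13.65 and 13.76 in NANCI, and 14.00, 13.94 and 13.71 in WT libraries. All 6 Double and Nkx libraries lay below all 6 NANCI and WT libraries. Id2 fell by 0.83 ± 0.15 in Double (limma adjusted p = 0.00319) and by 0.87 ± 0.15 in Nkx (adjusted p = 0.00461), or 1.78-fold and 1.83-fold lower than WT. Both calls held in every alternative fit, with adjusted p from 0.00224 to 0.0331 in Double and from 0.00284 to 0.0286 in Nkx.

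**Figure D1:**
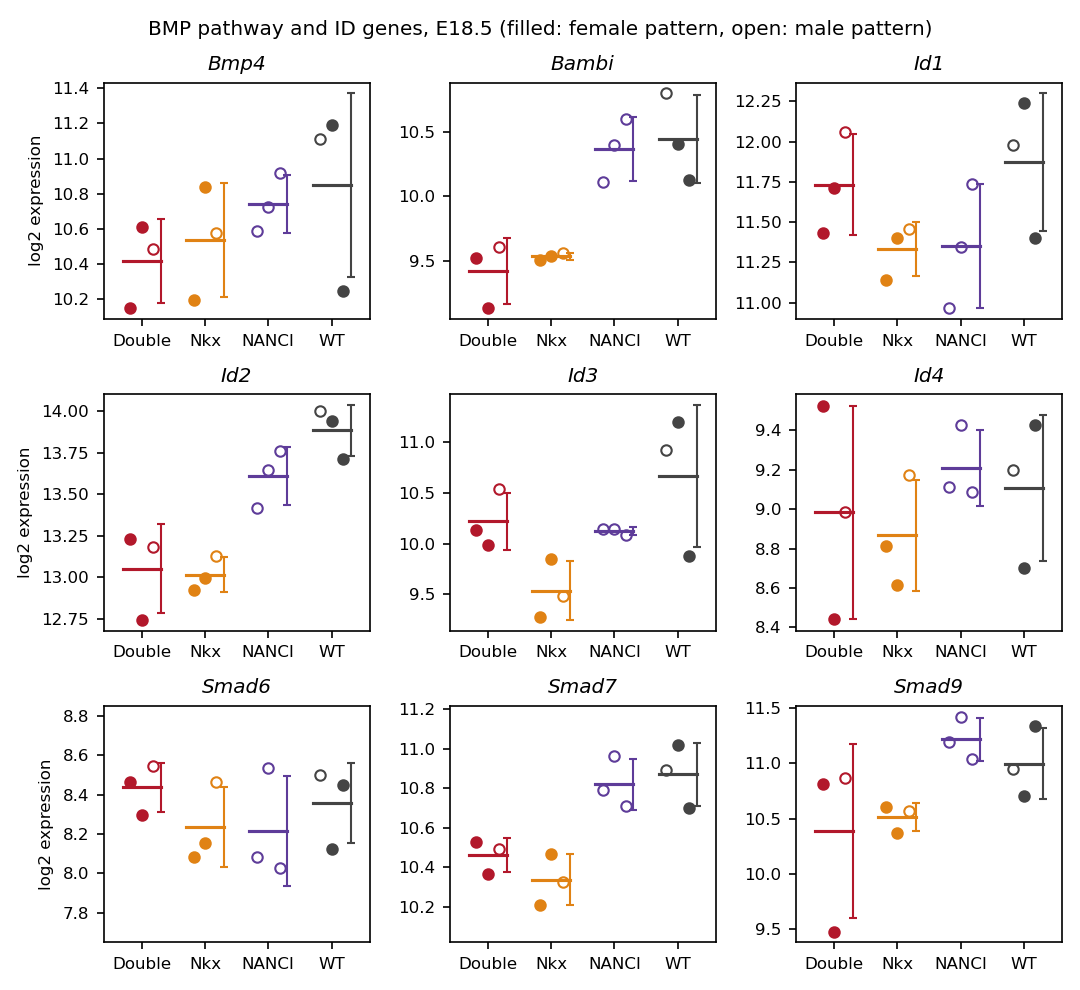
Log2 expression of the 9 genes in each E18.5 library (y axis, own scale per gene) for Double, Nkx, NANCI and WT (x axis, 3 libraries each). Points are libraries, filled for a female and open for a male pattern, horizontal bars are means and vertical bars ± 1 SD; Id2 and Bambi in the 6 Double and Nkx libraries sit below the 3 WT libraries.

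Id3 spread most among WT libraries. Levels on the log2 scale were 10.13, 9.99 and 10.53 in Double, 9.28, 9.85 and 9.49 in Nkx, 10.14, 10.15 and 10.08 in NANCI, and 10.92, 11.20 and 9.88 in WT libraries. The highest Nkx library was just under the lowest WT library, at 9.85 against 9.88, and Double and NANCI libraries lay inside the WT range. Id3 fell by 1.13 ± 0.28 in Nkx (limma adjusted p = 0.0309), and in Double the difference was -0.45 ± 0.28 (adjusted p = 0.349). The Nkx call was lost without WT replicate 1 (adjusted p = 0.134) or 2 (0.103) and without Nkx replicate 1 (0.0983) or 3 (0.102). Without WT replicate 3 the Double difference passed, at -0.84 (adjusted p = 0.0115).

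Id1 did not pass in any E18.5 comparison with all libraries. Its log2 levels were 11.43, 11.71 and 12.06 in Double, 11.14, 11.40 and 11.46 in Nkx, 10.97, 11.35 and 11.74 in NANCI, and 11.98, 12.24 and 11.40 in WT libraries. All groups overlapped, with differences from WT of -0.14 in Double, -0.54 in Nkx and -0.52 in NANCI (limma adjusted p = 0.78, 0.214 and 0.978; SE 0.24 each). Without WT replicate 3 the Nkx difference passed at -0.78 (adjusted p = 0.0363). Id4 varied within groups, from 8.44 to 9.52 in Double, 8.62 to 9.17 in Nkx, 9.09 to 9.43 in NANCI and 8.70 to 9.43 in WT. Its differences from WT ran from -0.24 to 0.10, each smaller than its SE of 0.27.

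Among the SMADs, Smad7 encodes an inhibitor shared by the BMP and TGF-beta branches. It had log2 levels of 10.53, 10.36 and 10.49 in Double, 10.21, 10.47 and 10.33 in Nkx, 10.79, 10.96 and 10.71 in NANCI, and 10.89, 11.02 and 10.70 in WT libraries. No Double or Nkx library reached the WT range. Smad7 fell by 0.54 ± 0.13 in Nkx (limma adjusted p = 0.0278), and the Double difference of -0.41 ± 0.13 did not pass (adjusted p = 0.0561). The Nkx call was lost without WT replicate 1 (adjusted p = 0.0979) or 2 (0.0846) and without Nkx replicate 1 (0.0907) or 3 (0.0922), and the Double difference passed without WT replicate 3 (-0.49, adjusted p = 0.0241).

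Smad6, the inhibitor most selective for BMP signals, stayed between 8.03 and 8.55 in all 12 E18.5 libraries. Its difference from WT was 0.08 ± 0.20 in Double, with a 95% interval of -0.36 to 0.52. Smad9 encodes SMAD8, 1 of the receptor SMADs of the BMP branch. The libraries held log2 levels of 10.82, 9.48 and 10.87 in Double and 10.61, 10.37 and 10.57 in Nkx, against 10.95, 10.70 and 11.34 in WT libraries. No Nkx library reached the WT range, and 2 Double libraries lay inside the WT range while the second was the lowest of all 12. Neither difference passed (-0.61 ± 0.30 in Double and -0.48 ± 0.30 in Nkx, limma adjusted p = 0.223 and 0.401).

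Read against all genes, the 2 calls in Double were both toward lower levels, where 7.47% of all genes were lower and 7.13% higher, and the 4 calls in Nkx likewise, against 3.65% of all genes lower and 3.67% higher. The groups did not overlap for 3 of 9 genes in Double, against 27.2% of all genes, and for 5 of 9 in Nkx, against 22.2%. Of the 9 differences 8 lay below 0 in Double and 9 in Nkx. The median over the 9 was -0.43 in Double and -0.54 in Nkx, while over all genes tested it was 0.02 in both. Nkx and Double share the WT libraries, so their values stand side by side and do not support each other. Without WT replicate 3 the Double count was 5. The Nkx count was 1 without WT replicate 1, and 2 without WT replicate 2, Nkx replicate 1 or Nkx replicate 3.

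NANCI homozygotes gave no call. None of the 9 genes passed against WT with limma, where 0 of all 13750 genes passed and 426 had an unadjusted p under 0.05, and 1 of the 9, Id1, was under that level. No gene of the 9 separated the groups without overlap, against 6.27% of all genes. The differences ran from -0.54 (Id3) to 0.22 (Smad9), with SEs of 0.13 to 0.30. Genes that passed in Nkx differed in what their NANCI intervals exclude. The Nkx change lay outside for Id2 (-0.87 against -0.60 to 0.05), Bambi (-0.91 against -0.50 to 0.35) and Smad7 (-0.54 against -0.34 to 0.24). For Id3 it lay inside (-1.13 against -1.16 to 0.07). The Id1 interval of -1.04 to -0.003 also held the Nkx difference of -0.54, which had not passed. All 3 NANCI libraries had the male pattern, so sex and genotype differ together here.

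Set directly against Nkx, Double epithelium at E18.5 gave no call among the 9 genes, and 0.00727% of all genes passed, a single gene (Mucl3, named after its value was seen, 2.18 ± 0.24, limma adjusted p = 0.0127). At an unadjusted p under 0.05 there were 559 genes in all. Id3 alone among the 9 separated the groups, against 8.6% of all genes, with 9.99 to 10.53 in Double and 9.28 to 9.85 in Nkx libraries. Its difference was 0.68 ± 0.28 (unadjusted p = 0.0331, adjusted p = 0.9998). Same-numbered libraries of these groups deviated together, and with the replicate number as a block and these groups alone Id3 differed by 0.68 with adjusted p = 0.258. None of the 9 passed in that fit.

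At 6 months the ID genes of Double epithelium split: Id1 and Id3 rose and Id4 fell. Bambi fell 4.25-fold, and Smad6 and Smad9 fell as well. These were 6 of the 9 genes in Double against WT, where 36.3% of all genes passed, and none of the 9 passed in Nkx against WT, where 2.63% did (1.52% higher and 1.11% lower). Bmp4 had log2 levels of 11.63, 12.03, 12.08 and 11.64 in Double, 12.63, 11.86 and 11.93 in Nkx, and 11.65, 12.15 and 11.67 in WT libraries. The groups overlapped throughout, and 1 Nkx library stood highest. The Double difference from WT was 0.02 ± 0.20 (limma adjusted p = 0.956), with a 95% interval of -0.43 to 0.47.

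Bambi showed the smallest p of the 9 genes in Double against WT at 6 months. Expression on the log2 scale was 9.60, 10.10, 9.75 and 9.81 in Double, 11.62, 11.75 and 11.88 in Nkx, and 12.42, 11.62 and 11.68 in WT libraries. All 4 Double libraries lay more than 1 log2 unit below every other library, and Nkx overlapped WT. Bambi fell by 2.09 ± 0.19 in Double against WT (limma adjusted p = 1.58e-05), a level 4.25-fold lower. Against Nkx it fell by 1.94 ± 0.19 (adjusted p = 0.000113). Both calls held in all alternative fits.

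Id1 moved the other way. Its log2 levels were 13.40, 12.42, 12.29 and 13.23 in Double, 11.32, 11.25 and 11.41 in Nkx, and 11.10, 10.94 and 11.42 in WT libraries. Every Double library was above all others, and the Double libraries formed a higher pair and a lower pair. Id1 rose by 1.69 ± 0.25 against WT (limma adjusted p = 0.000361), or 3.22-fold, and by 1.51 ± 0.25 against Nkx (adjusted p = 0.00164). Both calls held in all alternative fits.

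Id3 followed Id1 with a smaller change. Levels on the log2 scale were 12.22, 11.45, 11.27 and 11.68 in Double, 11.23, 11.06 and 11.12 in Nkx, and 10.70, 10.88 and 11.12 in WT libraries. The lowest Double library exceeded the highest of the others by 11.27 against 11.23. Id3 rose by 0.75 ± 0.19 against WT (limma adjusted p = 0.0103), or 1.69-fold. Against Nkx the difference was 0.52 ± 0.19 (adjusted p = 0.0799), and it passed without Double replicate 3 (0.64, adjusted p = 0.0337).

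**Figure D2:**
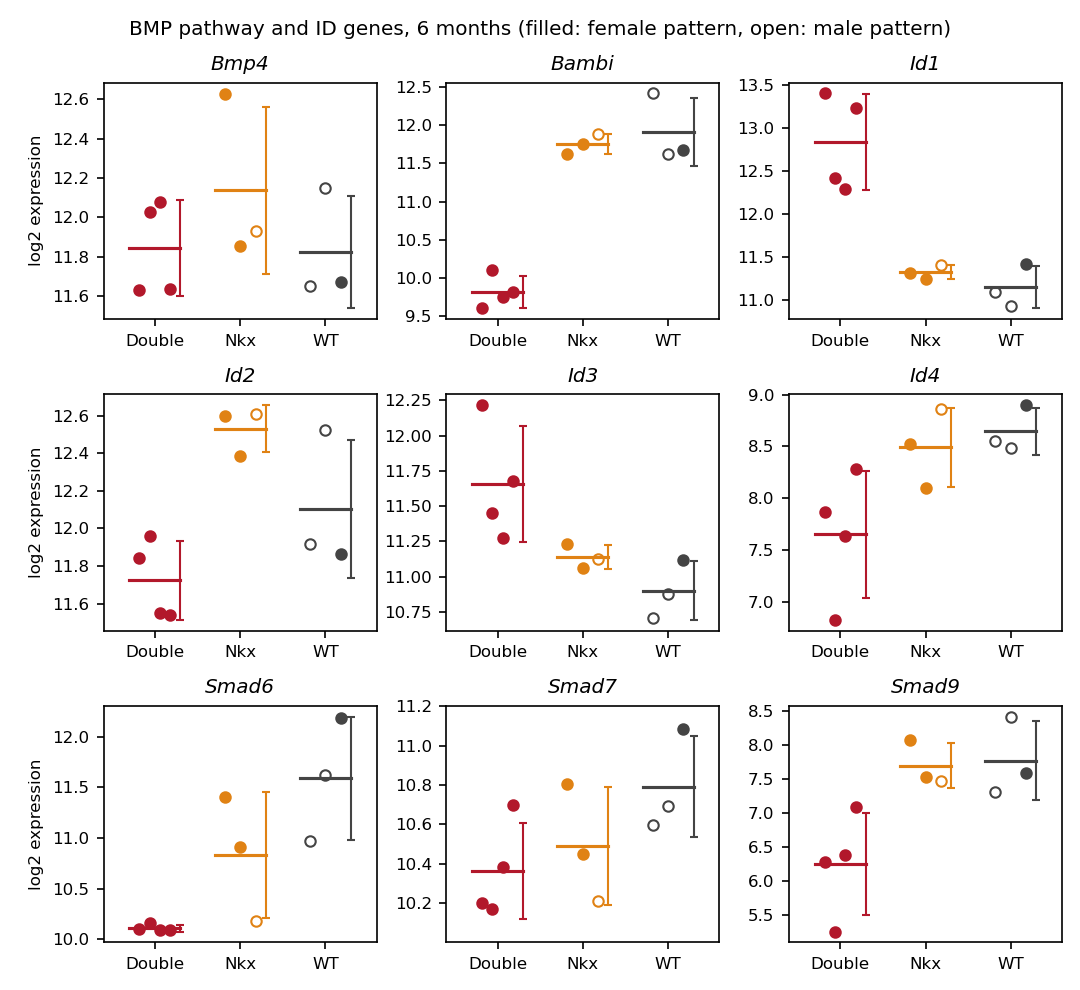
Log2 expression of the 9 genes in each 6-month library (y axis, own scale per gene) for Double (4 libraries), Nkx (3) and WT (3) on the x axis. Points are libraries, filled for a female and open for a male pattern, horizontal bars are means and vertical bars ± 1 SD; the 4 Double libraries sit above all others for Id1 and Id3 and below all others for Bambi, Smad6 and Smad9.

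Id2 and Id4 did not rise with Id1 and Id3. Id2 had log2 levels of 11.84, 11.96, 11.55 and 11.54 in Double, 12.60, 12.39 and 12.61 in Nkx, and 11.92, 12.52 and 11.86 in WT libraries. Double lay below Nkx without overlap and overlapped WT. Id2 fell by 0.81 ± 0.17 in Double against Nkx (limma adjusted p = 0.00591). Against WT the Double difference was -0.38 ± 0.17 (adjusted p = 0.101) and the Nkx difference 0.43 ± 0.18 (adjusted p = 0.197).

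Id4 had log2 levels of 7.87, 6.82, 7.64 and 8.28 in Double, 8.52, 8.10 and 8.86 in Nkx, and 8.55, 8.48 and 8.90 in WT libraries. All Double libraries were below WT, and the highest passed the lowest Nkx library. Id4 fell by 0.99 ± 0.32 against WT (limma adjusted p = 0.0292), or 1.99-fold. The call was lost without WT replicate 1 (adjusted p = 0.0572), 2 (0.0556) or 3 (0.106) and without Double replicate 3 (0.0503). Against Nkx the difference was -0.84 ± 0.32 (adjusted p = 0.0819), and it passed without Double replicate 4 (-1.05, adjusted p = 0.0376).

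Smad6 was nearly constant among Double libraries and spread out in the others. Per library, log2 levels were 10.10, 10.16, 10.09 and 10.09 in Double, 11.41, 10.92 and 10.18 in Nkx, and 10.97, 11.62 and 12.18 in WT libraries. Double lay below both, by as little as 10.16 against 10.18 in the third Nkx library. Smad6 fell by 1.48 ± 0.29 against WT (limma adjusted p = 0.00217), or 2.79-fold. Against Nkx the difference was -0.72 ± 0.29 (adjusted p = 0.0983), and it passed without Nkx replicate 3 (-1.05, adjusted p = 0.0251). In Nkx against WT it was -0.76 ± 0.31 (adjusted p = 0.188).

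Endothelial and mesenchymal markers moved with genotype in these sorts. The mean over 12 endothelial markers, none of them at the lowest value, ranged over 8.14 to 9.25 among Double, 10.47 to 11.37 among Nkx and 11.01 to 12.18 among WT libraries, and all 12 fell in Double against WT. Pecam1, which encodes the CD31 of the sort, fell by 2.92 ± 0.40 (limma adjusted p = 0.000236). Smad6, which endothelial cells also express, followed that mean library by library outside Double. The 6 Nkx and WT libraries stood in the same order by Smad6 as by the endothelial mean. By Smad7 they stood in that order except that Nkx replicate 1 (10.81) and WT replicate 2 (10.70) changed places. The mean over 11 of 12 mesenchymal markers ranged over 6.34 to 7.78 among Double, 8.53 to 9.04 among Nkx and 9.08 to 9.73 among WT libraries. Id1 and Id3, which endothelial cells also express, were higher in all Double libraries, the group with the lowest endothelial means. Within no group did Id1 or Id3 fall steadily as the endothelial mean rose. Double replicate 1, with the lowest endothelial mean (8.14), had the highest Id1 and Id3. Double replicate 3, at 8.30, had the lowest Id1 (12.29) and Id3 (11.27) of the Double libraries. Among Nkx and WT libraries Id1 was highest (11.42) in WT replicate 3, where the endothelial mean was highest (12.18). Within WT, Id3 rose in the order of the endothelial mean, at 10.70, 10.88 and 11.12 in replicates 1, 2 and 3. Within Nkx it did not follow that order. The part of these cells in the results was not tested.

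**Figure D3:**
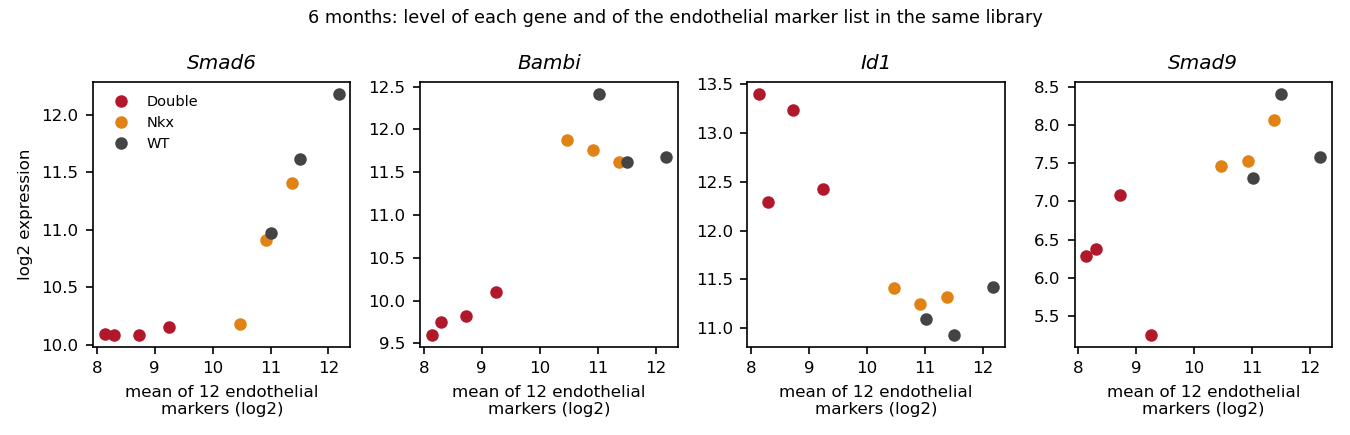
Log2 expression of Smad6, Bambi, Id1 and Smad9 (y axes, own scales) against the mean log2 level of 12 endothelial markers in the same 6-month library (x axes), for 4 Double, 3 Nkx and 3 WT libraries, 1 point each. Double libraries stand apart on the x axis at 8.14 to 9.25. Within the Nkx and WT libraries Smad6 climbs with the endothelial mean, while Bambi and Id1 do not. Smad9 there is 7.31 to 7.53 at the lowest endothelial means (Nkx replicates 2 and 3, WT replicate 1) and 7.58 to 8.41 elsewhere.

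Smad7 did not pass with all libraries at 6 months. Its log2 levels were 10.20, 10.17, 10.38 and 10.70 in Double, 10.81, 10.45 and 10.21 in Nkx, and 10.60, 10.70 and 11.08 in WT libraries. The groups overlapped. The Double difference from WT was -0.43 ± 0.18 (limma adjusted p = 0.0837), and it passed without Double replicate 4 (-0.54, adjusted p = 0.034).

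Smad9 had the widest range of the 9 genes at this age. Expression on the log2 scale was 6.28, 5.26, 6.38 and 7.09 in Double, 8.07, 7.53 and 7.47 in Nkx, and 7.31, 8.41 and 7.58 in WT libraries. All Double libraries were lower than all others. Smad9 fell by 1.51 ± 0.42 against WT (limma adjusted p = 0.0149), or 2.86-fold, and by 1.44 ± 0.42 against Nkx (adjusted p = 0.0298). The call against WT was lost without WT replicate 2 (-1.19, adjusted p = 0.0777). The call against Nkx was lost on leaving out any single Nkx library (adjusted p = 0.121, 0.0652 and 0.0592 for replicates 1, 2 and 3) and without Double replicate 1 (0.0555).

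**Figure D4:**
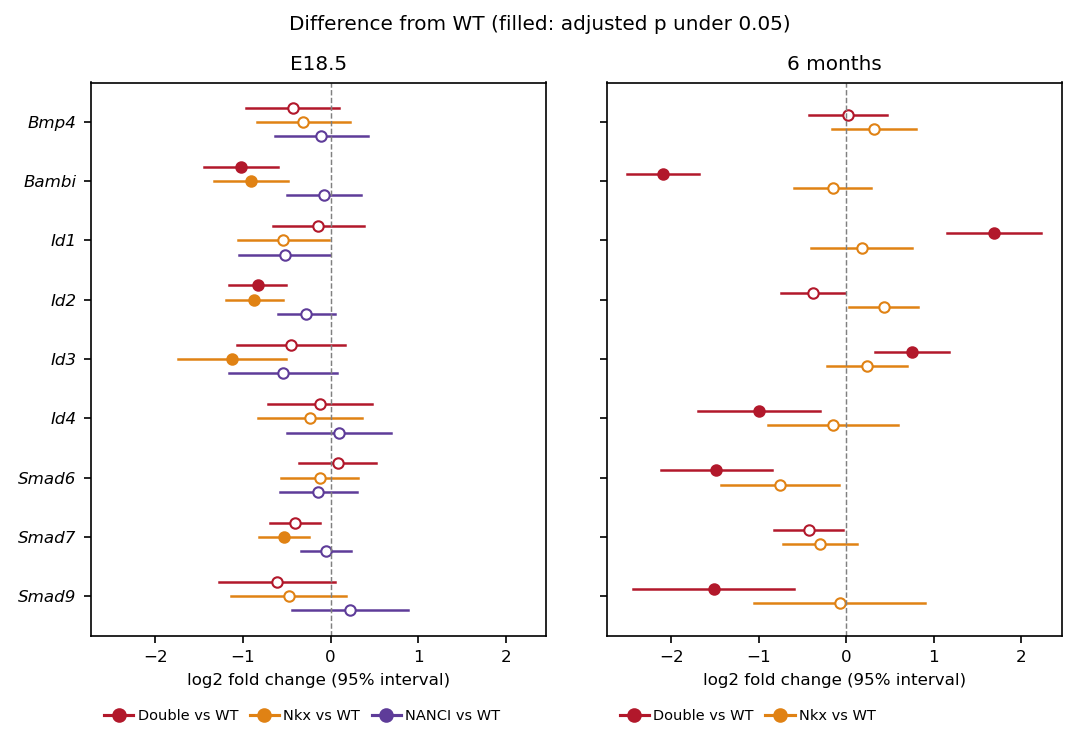
Log2 fold change from WT with its 95% interval from limma (x axis) for the 9 genes (rows), at E18.5 (left; Double, Nkx and NANCI) and 6 months (right; Double and Nkx). Filled points passed at an adjusted p under 0.05: at E18.5 these are 2 genes in Double and 4 in Nkx, all left of 0, and at 6 months Id1 and Id3 to the right of 0 and Bambi, Id4, Smad6 and Smad9 to the left, all in Double.

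Sex differs with genotype at this age, and the comparison within the female pattern has 4 Double libraries, 2 Nkx and 1 WT. Bambi was 9.60 to 10.10 in these Double libraries against 11.68 in the female WT library, and Id1 was 12.29 to 13.40 against 11.42. Smad6 was 10.09 to 10.16 against 12.18. With sex pattern as a covariate, Bambi (-1.91), Id1 (1.59) and Smad6 (-2.11) still passed in Double against WT. The calls of Id3 (0.64, limma adjusted p = 0.0826), Id4 (-0.94, 0.124) and Smad9 (-1.53, 0.0637) were lost, and Smad7 passed (-0.71, 0.0195). In Double against Nkx with this covariate, the Smad9 call was lost (-1.45, limma adjusted p = 0.0534) and Smad6 passed (-1.04, 0.00266). Bambi, Id1 and Id2 still passed there.

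In Double against WT 2 of the 9 genes were higher and 4 lower, where 18.4% of all genes were higher and 17.9% lower. The groups did not overlap for 6 of 9, against 40.1% of all genes. Against Nkx 4 of 9 passed, 1 higher and 3 lower, where 21.7% of all genes passed, 10.2% higher and 11.5% lower, and 6 of 9 did not overlap, against 31.8%. With so many genes changed in Double, the counts are read as a description of the 9 genes. In Nkx against WT 2 of the 9, Id2 and Smad6, had an unadjusted limma p under 0.05, and none separated the groups, against 30.5% of all genes. Every pair of these comparisons shares 1 group of libraries.

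Upstream sequence is shown for Id4, Smad6 and Smad9, which fell together in 6-month Double epithelium. Of the 9 genes 6 had a window in the table of promoters (RefSeq, GRCm38.p6). The 250 bases before the RefSeq start were searched on both strands. The windows of Id2 (chr12:25096093-25096342) and Id3 (chr4:136143572-136143821) lie inside the gene spans given above, so their matches are not upstream of those spans. The 6 windows hold 62.8 to 75.6% G and C, and the background of all promoters was not matched for this. GGCGCC, a GC-rich SMAD motif, is in 3 of the 6 windows (Id2, Id4 and Smad9), against 9.59% of 32851 promoters. CTCAAG, a core motif of NKX2-1, is in 2 (Id3 and Smad6), against 13.3%. GTCT, the SMAD box, is in 5 against 82.9%, and CANNTG, the E-box of helix-loop-helix factors, is in 3 against 66.2%. Capitals mark GGCGCC, or CTCAAG read on the other strand in Smad6. The first capital stands at -148 in Id4 (chr13:48260866-48261115, plus strand), at -204 in Smad6 (chr9:64022060-64022309, minus strand) and at -51 in Smad9 (chr3:54755332-54755581, plus strand), and a match is a description of the letters, not of binding.
Id4: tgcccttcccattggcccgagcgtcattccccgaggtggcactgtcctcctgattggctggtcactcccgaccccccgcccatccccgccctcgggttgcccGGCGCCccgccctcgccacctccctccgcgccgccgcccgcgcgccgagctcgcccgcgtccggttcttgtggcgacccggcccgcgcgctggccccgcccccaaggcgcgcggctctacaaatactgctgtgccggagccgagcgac
Smad6: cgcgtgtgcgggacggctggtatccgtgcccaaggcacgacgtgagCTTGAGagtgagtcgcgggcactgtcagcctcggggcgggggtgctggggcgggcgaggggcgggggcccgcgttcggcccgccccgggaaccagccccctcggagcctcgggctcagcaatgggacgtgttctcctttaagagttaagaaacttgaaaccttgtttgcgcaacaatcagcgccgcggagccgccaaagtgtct
Smad9: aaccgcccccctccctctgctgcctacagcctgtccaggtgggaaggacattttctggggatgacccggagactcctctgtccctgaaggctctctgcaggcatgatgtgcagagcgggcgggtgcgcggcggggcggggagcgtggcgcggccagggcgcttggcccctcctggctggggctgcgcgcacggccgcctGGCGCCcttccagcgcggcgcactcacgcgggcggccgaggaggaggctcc

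The rest of the pathway was read from 7 lists of 85 genes in all, of which 63 were measured at E18.5 and 74 at 6 months. These lists too were chosen with earlier results of these data known, so their shares beside those of all genes are a description. At E18.5, 15 passed in Double against WT (8 higher, 7 lower), which is 23.8% of those measured against 14.6% of all genes, and 10 in Nkx (6 higher, 4 lower), 15.9% against 7.32%. At 6 months 36 passed in Double against WT (15 higher, 21 lower), 48.6% of those measured against 36.3% of all genes, and 5 in Nkx (4 higher, 1 lower), 6.76% against 2.63%. In 6-month Double against Nkx 22 passed (10 higher, 12 lower), 29.7% against 21.7% of all genes. None passed in NANCI against WT or in E18.5 Double against Nkx. The median difference of these genes from WT was 0.094 in E18.5 Double and -0.069 in 6-month Double, against 0.018 and 0.064 over all genes.

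Ligands changed at both ages although Bmp4 did not pass. At E18.5 Bmp2, which signals through the same receptors as Bmp4, fell by 1.26 ± 0.28 in Double (limma adjusted p = 0.00977) and by 1.10 ± 0.28 in Nkx. The libraries held log2 levels of 7.27 to 7.91 in Double and 7.34 to 8.21 in Nkx, against 8.60 to 9.33 in WT libraries. Bmp8b rose by 1.18 in Double and 1.004 in Nkx, Bmp3 fell by 0.82 in Double, and Bmp7 and Gdf11 rose by 1.27 and 0.82 in Nkx. At 6 months Bmp5 rose in Double (1.44 ± 0.12, 12.39 to 12.78 against 10.96 to 11.31 in WT libraries) and in Nkx (0.71 ± 0.13). Gdf11, Gdf5 and Bmp8b rose by 1.59, 1.40 and 1.07 in Double, and Bmp6 fell by 3.12 ± 0.37 in Double.

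No receptor passed at E18.5 apart from the co-receptor Rgmb, which fell by 0.41 in Double. At 6 months Eng and Acvrl1, co-receptor and type I receptor of the endothelial BMP9 pathway, fell by 3.75 ± 0.42 and 2.56 ± 0.33 in Double, next to the endothelial markers given above. Bmpr2, the type II receptor, fell by 1.18 and Rgmb by 0.67 in Double, and Bmpr1b rose by 1.28 in Nkx. Among SMADs and their regulators the changes were small. Smad3 fell by 0.37 in E18.5 Double. In 6-month Double Skil, a nuclear repressor of SMADs, rose by 0.89, while Ski, Lemd3 and Smurf2 fell by 0.44, 0.41 and 0.38.

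Secreted antagonists moved in both directions. Twsg1 rose by 0.46 in E18.5 Double. At 6 months Chrd and Nbl1 rose by 1.84 and 1.23 in Double, and Bmper and Chrdl1 fell by 2.54 and 2.20. Dcn, which is also in the mesenchymal list, rose by 1.60 in E18.5 Double and fell by 3.29 in 6-month Double. Fstl3 fell by 0.81 in 6-month Double against Nkx.

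Of 8 other targets of the pathway measured at 6 months, 2 were higher and 5 lower in Double against WT. Atoh8, a helix-loop-helix gene induced by BMP signals, had log2 levels from 10.82 to 11.20 among Double, 8.95 to 9.22 among Nkx and 7.91 to 8.41 among WT libraries at 6 months, 3 ranges without overlap. It rose by 2.74 ± 0.16 in Double (limma adjusted p = 1.04e-06) and by 0.90 ± 0.17 in Nkx (adjusted p = 0.0241) against WT, and by 1.85 in Double against Nkx. Runx2 rose by 2.47 in Double. Tmem100, Hey1 and Gata2, which endothelial cells express, fell by 3.04, 3.11 and 3.52 in Double, and Gata3 by 1.75. Hes1 rose in E18.5 Double (0.53) and Nkx (0.49) and fell by 0.47 in 6-month Double.

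Partners of ID proteins and related helix-loop-helix factors also passed. Bhlhe41 fell by 2.95 ± 0.43 in E18.5 Double and 2.94 ± 0.43 in E18.5 Nkx, and by 1.05 in 6-month Double, while Bhlhe40 rose by 0.72 in E18.5 Double and 0.87 in 6-month Double. Tcf3, which encodes E proteins bound by ID proteins, rose by 0.86 in E18.5 Double, and by 0.47 in 6-month Double against Nkx. Myc rose by 1.28 in 6-month Double. In the TGF-beta branch Tgfb2 rose in all 4 Double and Nkx comparisons with WT (0.80 in E18.5 Double, 1.05 in E18.5 Nkx, 2.08 in 6-month Double and 1.10 in 6-month Nkx). Tgfb1 fell in E18.5 Double, E18.5 Nkx and 6-month Double, by 1.13, 1.46 and 1.08. Ltbp2 rose in the same 3, by 1.60, 1.01 and 1.78. In 6-month Double Tgfbr1 rose by 0.59, Ltbp3 fell by 0.67, and Tgfbi fell by 2.92, and by 2.12 in Nkx.

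**Figure D5:**
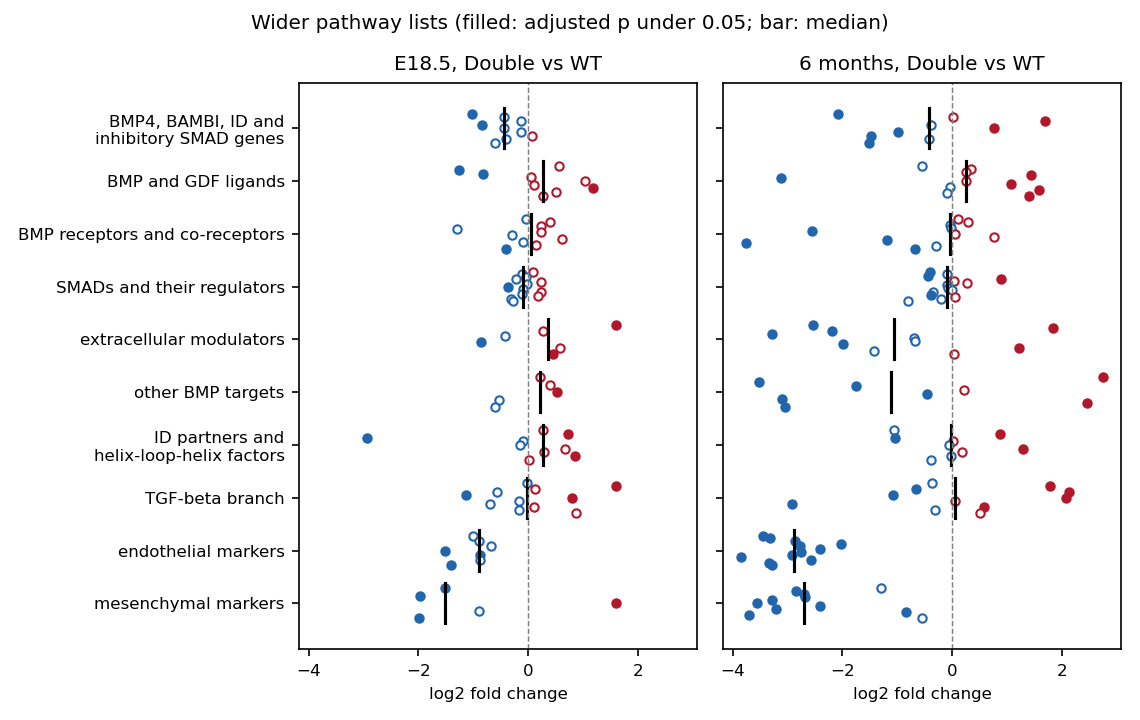
Log2 fold change of Double against WT (x axis) for each measured gene of the 9 and of the wider lists (rows), at E18.5 (left) and 6 months (right), with endothelial and mesenchymal markers below. Points are genes, red above 0 and blue below, filled at an adjusted p under 0.05, and black bars are list medians; the pathway lists lie on both sides of 0 while all 12 endothelial markers lie below 0 at 6 months.

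Markers of the epithelial cell types differed in the same libraries. Goblet markers, of mucus cells, had a mean over 7 of 8 genes of 8.13 to 10.03 in E18.5 Double and 8.51 to 9.22 in Nkx, against 3.87 to 4.64 in WT libraries, and all 7 rose in both groups. Tff2, Tff3 and Gcnt3 among them lay under 4 in every E18.5 WT library. At 6 months the goblet mean over 6 of 8 was 11.33 to 11.86 in Double and 8.45 to 9.02 in Nkx, against 6.65 to 7.59 in WT, and 6 rose in Double and 4 in Nkx. There Tff3 lay under 4 in every WT library, and at the lowest value in some WT and Nkx libraries. Markers of surfactant-producing AT2 cells had a mean over 8 genes of 14.83 to 15.68 in E18.5 Double and 15.53 to 15.97 in Nkx, against 16.39 to 16.68 in WT, and 8 fell in Double and 2 in Nkx. At 6 months it was 15.30 to 16.36 in Double and 17.29 to 17.41 in Nkx, against 17.68 to 17.92 in WT, and 7 fell in Double and 0 in Nkx. Of 8 markers of AT1 cells, the flat cells of gas exchange, 3 fell in E18.5 Double, 3 in E18.5 Nkx and 5 in 6-month Double. Of 6 ciliated cell markers 3 fell in E18.5 Double and all 6 in 6-month Double, and of 6 secretory cell markers 2 rose in each of E18.5 Double, E18.5 Nkx and 6-month Double and 1 in 6-month Nkx, with 1 lower in E18.5 Double and in E18.5 Nkx. None of these markers passed in NANCI.

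Other programmes differed as well. At E18.5 the mean over 7 of 10 leukocyte markers was 3.02 to 4.06 in Double and 2.85 to 4.57 in Nkx, against 6.46 to 6.88 in WT libraries. Cd53 and Adgre1 among them lay under 4 in every Double and Nkx library. The mean over 7 of 12 endothelial markers was 6.62 to 7.82 in Double and 7.13 to 7.92 in Nkx, against 7.79 to 8.60 in WT, and over 5 of 12 mesenchymal markers 5.67 to 6.03 in Double and 5.51 to 6.46 in Nkx, against 6.55 to 6.96 in WT. Among E18.5 WT libraries, replicates 1, 2 and 3 had endothelial means of 8.11, 8.60 and 7.79 and immediate early means of 13.20, 13.57 and 13.11. Bmp4, Id1, Id3 and Smad7 stood in that same order. Bambi, Id2, Id4, Smad6 and Smad9 did not, and the mesenchymal mean was lowest in replicate 1. The mean over 12 cell cycle genes was 10.01 to 10.26 in Double and 9.58 to 9.77 in Nkx, against 8.53 to 8.81 in WT, and Mki67 rose by 2.17 in Double and 1.60 in Nkx. At 6 months Mki67 rose by 2.07 in Double against WT. The leukocyte mean at that age, over 10 markers, was 7.93, 9.63, 6.26 and 8.31 in Double replicates 1 to 4. WT libraries lay between 7.12 and 7.56 and Nkx ones between 6.40 and 7.98. Double replicate 2, the highest, also had the lowest Id4 (6.82) and Smad9 (5.26). Replicate 4, next by leukocyte mean, had the highest Id4 (8.28) and Smad9 (7.09) of the Double libraries. Of these markers 1 passed in Double against WT, toward lower levels. The mean over 14 immediate early genes, which cell dissociation induces, ranged over 12.44 to 13.58 among Double, 14.29 to 14.53 among Nkx and 13.63 to 14.51 among WT libraries at 6 months, and Fos fell by 1.35 in Double against WT. The part of these markers, or of the epithelial ones, in the results for the 9 genes was not tested.

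The genes with the pattern most like Id2 at E18.5, by root-mean-square difference of centred log2 values over 12 libraries, were Pvr (0.116), Creg1 (0.131), Kiz (0.135), Apool (0.141) and Stard3nl (0.144), against a median of 0.498 over all genes with a mean of at least 5. Each of the 5 fell in Double and in Nkx against WT, by 0.63 to 0.98 and by 0.59 to 0.85. Most like Bambi at 6 months over 10 libraries were Gnmt (0.220), Tmod1 (0.221), Irx1 (0.245), Arhgap28 (0.256) and Ppp1r15a (0.260), against a median of 1.08. Each of these fell in Double against WT, by 1.64 to 2.34. Both sets of genes were chosen by likeness over these same libraries, so their falls follow from the choice.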

How the data were processed

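RNA of enriched mouse lung epithelial cells was measured in 22 libraries. The authors deposited 1 log2 expression value per Ensembl gene and library. Within an age the values at equal rank differed between libraries by a median SD of 0.00187 (E18.5) and 0.00242 (6 months), so they were taken as quantile-normalized. STAR, limma and mm9 are named, per the submitters' processing notes, without version or role, and library construction was not stated in the sources used here. No counts were used, so read depth is unknown and genes sharing reads with overlapping genes could not be checked. A change shared by most genes is removed by such normalization.

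Symbols and coordinates came from GENCODE on GRCm38 by gene ID (99.2% and 96.2% of IDs matched). Groups came from the labels, which do not state whether replicates came from different animals; p-values therefore reflect only the spread among these libraries, possibly technical. Each age was fitted with limma 3.58.1 in R 4.3.3 over all its libraries, with group as the factor and a trend of variance on mean. Adjustment was by Benjamini-Hochberg across every gene of the age, and an adjusted p under 0.05 passed. The fit was also run on simulated data with 200 changed genes and independent normal noise. Fewer genes were changed there than passed in Double against WT, and no linked replicates were simulated. That run is not used as support here. Named genes were the 9, each gene of the wider lists that passed in a comparison (except 2 that are counted but not reported by name here), the 5 nearest patterns to the gene with the smallest p at each age, and defining markers. The 9 genes and all lists were chosen with earlier results of these data known. Alternatives were recentring, a minimum mean of 5, a floor of 4, no trend, only the groups compared, sex pattern as covariate, the replicate number as a block, and leaving out each library. For E18.5 Double and Nkx, same-numbered libraries correlated at 0.357, 0.557 and 0.228 in their deviations from group means, so a blocked fit of these groups alone was added after seeing the data. NANCI itself was not analysed here.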

Additional observations from a re-analysis of the deposited data

Results flagged for a closer look

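Groups of 4 libraries were examined for 1 library far from the rest, which applies to the 9 genes in 6-month Double, 9 sets of values in all. In 1 of them, Smad6, replicate 2 stood apart: its log2 level was 10.16, against 10.10, 10.09 and 10.09 in the other Double libraries. The SD of the 4 values was 0.03, so the distance is small beside the difference from WT. Chance alone flags about 1 in 20 such groups.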

How the results depend on the processing

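The 63 differences of the 9 genes gave 846 values under the alternatives. Of these 772 kept their direction and side of the threshold, 26 lost the call, 13 gained one and 35 changed sign, and no difference that had passed changed sign. Id2 at E18.5 in Double and Nkx, Bambi in E18.5 Double, and Bambi, Id1 and Smad6 in 6-month Double against WT passed in every fit. No cause of the changes below was tested.

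Of the 9 genes, the number passing with 1 library left out was 2 to 5 in E18.5 Double and 1 to 5 in E18.5 Nkx against WT, 4 to 7 in 6-month Double against WT, 3 to 5 in 6-month Double against Nkx, and 0 elsewhere. Fitted on only the groups compared it was 1 in E18.5 Nkx, where Bambi (adjusted p = 0.0508), Id3 (0.122) and Smad7 (0.132) were lost, and with sex pattern as covariate 1 in 6-month Nkx against WT (Smad6, -1.07, adjusted p = 0.028). Over all genes, the number passing with 1 library left out was 0 to 2 in NANCI, 466 to 2179 in E18.5 Nkx, 1182 to 2691 in E18.5 Double, 0 to 1 in E18.5 Double against Nkx, 59 to 211 in 6-month Nkx, 4445 to 5727 in 6-month Double and 2204 to 3492 in 6-month Double against Nkx. On only the groups compared it was 491 in E18.5 Nkx, 928 in E18.5 Double and 3 in E18.5 Double against Nkx. With values under 4 set to 4 it was 1 in NANCI and 5 in E18.5 Double against Nkx, and with no trend 3 in NANCI and 98 in 6-month Nkx. With sex pattern as covariate it was 228 in 6-month Nkx and 3851 in 6-month Double against WT.

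With 1 library left out, these differences changed sign, none of which had passed. In E18.5 NANCI against WT Bmp4 -0.41 to 0.066, Bambi -0.23 to 0.10, Id4 -0.10 to 0.26 and Smad7 -0.13 to 0.025. In E18.5 Double against WT Id1 -0.37 to 0.044, Id4 -0.39 to 0.15 and Smad6 -0.038 to 0.15. In E18.5 Double against Nkx Bmp4 -0.29 to 0.029, Bambi -0.21 to 0.031, Id2 -0.053 to 0.19, Id4 -0.15 to 0.39 and Smad9 -0.37 to 0.33. In 6-month Nkx against WT Bambi -0.29 to 0.10, Id4 -0.34 to 0.045 and Smad9 -0.31 to 0.25. In 6-month Double against WT Bmp4 -0.067 to 0.18. In 6-month Double against Nkx Smad7 -0.26 to 0.033. Otherwise sign changed for Id4 in NANCI against WT (-0.031 with sex pattern as covariate) and Bmp4 in 6-month Double against WT (-0.026 recentred, -0.0077 with sex pattern as covariate).

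Apart from E18.5 Double and Nkx, no other groups had every same-numbered pair correlated over 0.1. The E18.5 pairs ran from -0.31 to 0.51, where replicate 2 of WT with Nkx (0.51) and with Double (0.48) and replicate 3 of WT with Nkx (0.42) were above 0.1, and the 6-month ones from -0.31 to 0.12. With the replicate block, the genes passing over all genes were 131 in 6-month Nkx against WT and 2285 in 6-month Double against Nkx. In the latter Id4 passed at -1.05. Only Double has a replicate 4 at 6 months, so the block fits that library exactly. The Id4 difference is therefore the same as without Double replicate 4. For E18.5 Double against Nkx alone, with the replicate block, 9 passed, none of the 9 genes described here. The block changed no other call of these genes. With 3 or 4 libraries a group and read depth unknown, the SE of a difference ran from 0.13 to 0.45 for these genes, which limits what was detectable.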
